A study of Homo sapiens with 2 samples.

Results

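The mitosis genes are 48 genes whose products drive cell division: mitotic kinesins, kinetochore and checkpoint proteins, the cyclins and activators of CDK1, mitotic kinases and spindle factors, cytokinesis proteins, and a few chromosome and proliferation genes. They were taken as every probe set whose platform annotation names one of these genes and no other gene, which gave 94 probe sets for 48 genes, of 41091 probe sets with 1 gene and 54675 probe sets in all. A further 8 probe sets name one of these genes together with another gene and were left out. The study used CL1-0, an established human lung adenocarcinoma line. It compared cells given an antibody to FSTL1, a secreted glycoprotein, for 6 h with cells at 0 h of the same antibody treatment, with 1 Affymetrix array per time. Per the labels the cells of both arrays had been selected with puromycin and stably transduced, with no vector named. Cells kept for 6 h without the antibody or with another antibody were not analysed here, so time in culture, handling and the antibody cannot be told apart.

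Each time has 1 array, so the differences given here come with no replicates, no standard error and no test. The deposited values are probe set intensities on a linear scale. Values under 45.4, the median of all values of both arrays, were set to that floor, an assumed background. For each gene the brightest probe set (highest mean of the log2 intensities) stands for the gene, and the difference is the log2 intensity at 6 h minus that at 0 h. Different probe sets of 1 gene scattered around the gene's mean log2 difference (SD 0.16, pooled over 6122 genes), which is the one measure of error at hand and is not the error of a repeated experiment. Over all probe sets the median was 44.9 for the 6 h array and 45.8 for the 0 h array. The ratio of 3′ to 5′ control probe sets, a sign of RNA integrity, was 1.12 at 6 h and 1.14 at 0 h for GAPDH, and 1.72 at 6 h and 1.68 at 0 h for ACTB.

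The labels call the cells type II alveolar cells. Of 10 markers of that cell type, 5 were measured above the floor, SFTPD, LAMP3 and SLC34A2 lay below it on both arrays, and SFTPA1 and SFTPA2 had no probe set of 1 gene. The 5 measured ones were dim: ABCA3 had an intensity of 208 at 6 h and 173 at 0 h, SFTPB 133 at 6 h and 104 at 0 h, SFTPC 92.3 at 6 h and 113 at 0 h, NKX2-1 68.6 at 6 h and 56.7 at 0 h, and NAPSA 61.0 at 6 h and 51.1 at 0 h. All 5 lay above the floor of 45.4 on both arrays. Of 5 epithelial markers, EPCAM, CDH1 and KRT19 lay below the floor on both arrays. The keratin KRT18 had an intensity of 121 at 6 h and 148 at 0 h, above the floor, and KRT8 one of 52.4 at 6 h and 48.1 at 0 h, close to it. All 4 leukocyte markers with a probe set of 1 gene lay below the floor, as did 4 of 6 fibroblast markers and 3 of 4 endothelial ones. The fibroblast marker COL1A1 had 179 at 6 h and 230 at 0 h, in the range of ABCA3. DCN, also of fibroblasts, had 41.1 at 6 h and 50.5 at 0 h, and the endothelial marker PECAM1 had 54.5 at 6 h and 73.5 at 0 h. Dim signal above the floor was thus not particular to the labelled cell type. The markers of the labelled cell type were thus in part above the floor and in part below it, and the arrays are called here by their line name.

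Cell division is driven by CDK1 bound to B-type cyclins. CDC25 phosphatases switch the kinase on, and the anaphase-promoting complex ends its activity by marking cyclin B for destruction. Kinesins are motors that walk along or take apart microtubules, and the mitotic ones build the spindle, move chromosomes and form the midzone at which the cell is cut. Most of these genes are transcribed late in the cell cycle, when promoters with a cell cycle genes homology region (CHR) are released from the repressive DREAM complex and used by B-MYB, MuvB and FOXM1. In proliferating tumour lines these transcripts are abundant, and their summed level is widely used as a gauge of cycling cells.

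Of the 48 mitosis genes, 42 were higher and 6 lower at 6 h than at 0 h, where 54.3% of all 12669 measured genes were higher and 45.7% lower. The median log2 difference was 0.10 over the mitosis genes and 0.02 over all measured genes. The differences were small in size. At least 1.1-fold higher were 16 mitosis genes (25.1% of all genes) and at least 1.1-fold lower were 0 (16.7% of all genes). At least 1.2-fold higher were KIF18A, KIF14 and ECT2, 3 genes of 48 (9.9% of all genes), and 0 were at least 1.2-fold lower (5.29% of all genes). None of them reached 1.5-fold in either direction (0.75% of all genes higher and 0.182% lower). The mitosis genes thus lay in a narrow band, with an SD of 0.10 across genes where that across all measured genes was 0.19. However, 40 of the 48 were in the brightest of 4 classes of intensity, while all measured genes include dim ones. The spread of other genes of like intensity was not compared, so the narrow band cannot be called particular to the mitosis genes. For 37 of the 48 the difference was smaller than the probe set scatter of 0.16. The 11 that exceeded it were all higher, a share close to the 21.1% of all genes that were higher by as much. In bulk RNA more cells in mitosis and more transcript per cell cannot be told apart.

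**Figure D1:**
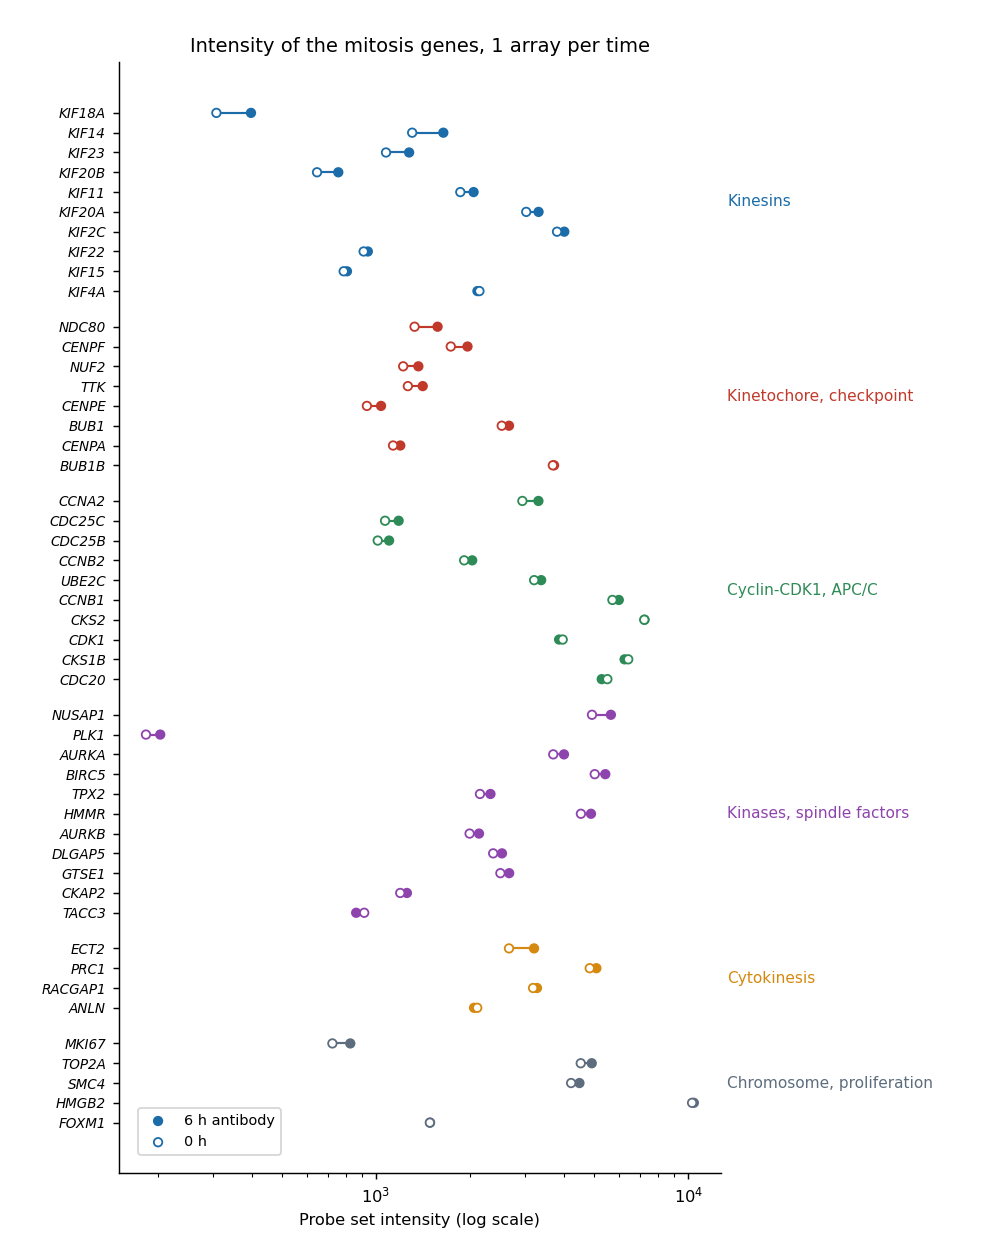
Probe set intensity (log scale) of the 48 mitosis genes, ordered by role and then by difference, with 1 array per time and no error bars because there are no replicates. Filled points are 6 h and open points 0 h: the filled point lies to the right for 42 genes, and the gap is small against the range of intensities, with the widest gaps at KIF18A (398 at 6 h, 308 at 0 h) and KIF14 (1643 at 6 h, 1306 at 0 h).

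All 48 genes were above the floor on both arrays with their brightest probe set, so the floor sets none of their values. Of the 94 probe sets, 81 were measured, 13 did not reach the floor on either array, and 2 of the measured ones passed it on 1 array alone. Of the 81, 65 were higher and 16 lower (54.8% of all measured probe sets of 1 gene were higher). For 22 genes 2 or more probe sets were measured: all sets were higher for 14 of them (30.4% of all such genes), all were lower for 2 (20.9%), and 6 had sets in both directions. The remaining 26 genes rest on 1 measured probe set.

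**Figure D2:**
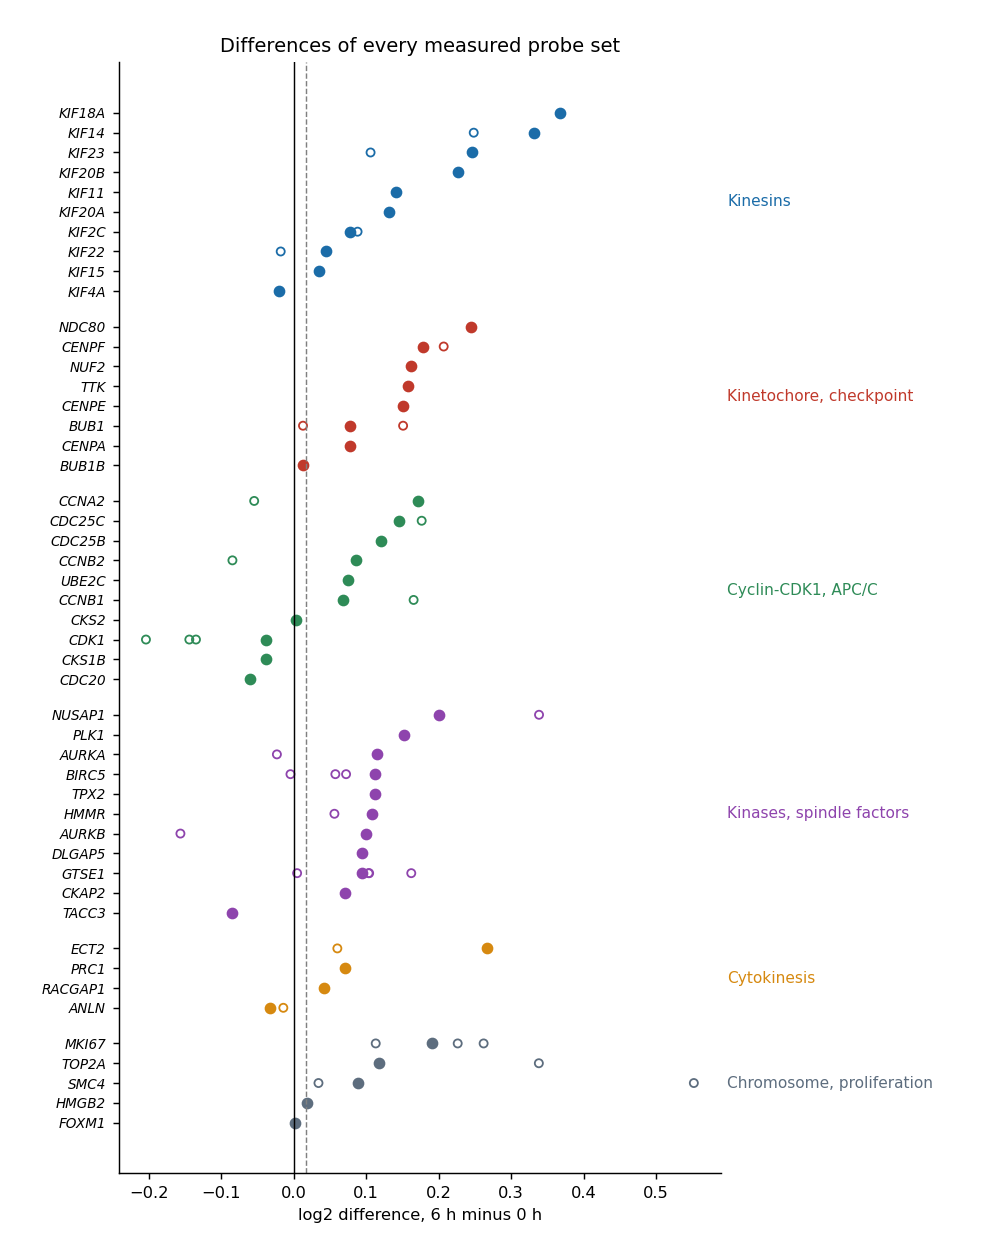
The log2 difference, 6 h minus 0 h, of every measured probe set of the 48 genes by role. Filled points are the brightest set of a gene, open points its other sets, the solid line is 0 and the dashed line the median of all measured genes (0.02). Sets of CDK1 and ANLN lie on the lower side, all sets of MKI67, CENPF, NUSAP1 and KIF14 on the higher side, and the outermost point is a set of SMC4 at 0.55.

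What the genes share in sequence can be seen in their promoters. The list holds mostly late cell cycle genes, a class described above as having CHR promoters. The shares below therefore describe the list and are not an independent finding about it. RefSeq promoter sequence (GRCh38.p14, 250 bases before and 50 from each gene start) was matched by symbol for 40 of the 48 genes, in 51 entries since some genes have several starts. TTK, UBE2C, AURKA, BIRC5, TPX2, RACGAP1, HMGB2 and FOXM1 were not among them. The core letters of the CHR are TTTGAA, searched on both strands, and were found in 32 of 51 entries (62.7%) and in 15.2% of all 35116 entries. CCAAT, the box bound by NF-Y, also searched on both strands, was found in 66.7% and 34.6%, and both motifs together in 49.0% and 5.9%. TTTGAA began within 60 bases before to 10 after the start in 41.2% of the mitosis gene entries and in 3.57% of all entries. The less common form TTCGAA, its own reverse complement, was found in 9.8% and 1.45%. In promoters of G1/S and replication genes, a list for the earlier phase of the cycle, TTTGAA was found in 1 of 43 entries (2.33%) and CCAAT in 60.5%. A CHR core and a CCAAT box may share an end base, and each was counted. Such matches describe letters, not bound sites.

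The sequences below, each 120 bases before and 30 from the start, show where the motifs lie for the 4 mitosis genes with the largest differences among those whose 2 or more measured probe sets all moved one way, and for CCNB2 and CDC25C, textbook cases of CHR promoters. Capitals mark the CHR core and the CCAAT box, on either strand. Positions count from 1 at the start, with -1 the base before it, and give the first base of a match. For genes with several entries the one with a TTTGAA match nearest its start is shown.
KIF14, minus strand, chr1:200620722-200620871: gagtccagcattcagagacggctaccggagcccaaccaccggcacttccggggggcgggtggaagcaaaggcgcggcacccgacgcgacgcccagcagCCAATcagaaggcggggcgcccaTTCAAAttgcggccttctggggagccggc
ECT2, plus strand, chr3:172750606-172750755: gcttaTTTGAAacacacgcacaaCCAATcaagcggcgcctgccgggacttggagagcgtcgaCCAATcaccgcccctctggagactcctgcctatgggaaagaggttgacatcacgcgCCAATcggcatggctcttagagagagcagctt
KIF23, plus strand, chr15:69414229-69414378: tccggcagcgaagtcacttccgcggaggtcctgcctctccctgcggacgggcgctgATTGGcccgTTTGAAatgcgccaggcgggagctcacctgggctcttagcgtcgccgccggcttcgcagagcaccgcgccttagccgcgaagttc
NUSAP1, plus strand, chr15:41332761-41332910: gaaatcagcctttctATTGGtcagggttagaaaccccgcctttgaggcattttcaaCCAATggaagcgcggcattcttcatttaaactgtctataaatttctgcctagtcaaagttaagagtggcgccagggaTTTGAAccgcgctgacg
CCNB2, plus strand, chr15:59105026-59105175: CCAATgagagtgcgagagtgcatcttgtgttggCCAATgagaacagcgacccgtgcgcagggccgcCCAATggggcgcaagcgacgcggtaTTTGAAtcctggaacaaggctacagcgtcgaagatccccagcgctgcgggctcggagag
CDC25C, minus strand, chr5:138331775-138331924: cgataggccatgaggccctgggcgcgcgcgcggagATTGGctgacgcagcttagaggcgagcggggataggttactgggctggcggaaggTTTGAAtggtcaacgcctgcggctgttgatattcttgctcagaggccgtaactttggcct

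In CCNB2 and CDC25C the TTTGAA begins at positions -29 and -30, just before the start, with CCAAT boxes upstream of it, the nearest at -54 in CCNB2 and -85 in CDC25C. KIF23 has the same order at -55 and -64. In KIF14 and NUSAP1 the match lies just inside the transcribed part, at positions 2 and 14, and in ECT2 it lies far upstream at -115. Mitosis genes with and without the motif had similar differences, with no test: the 29 genes with TTTGAA in any entry had a median log2 difference of 0.11, with 24 higher, and the 11 without it one of 0.08, with 10 higher. Over all measured genes in the promoter table, the 1379 with TTTGAA had a median of 0.04 (57.9% higher) and the 8845 without it one of 0.02 (54.5% higher).

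The kinesins held the 2 genes with the largest differences, KIF18A and KIF14. The median log2 difference of the group was 0.14: 9 of 10 were higher, 1 was lower, and 5 were at least 1.1-fold higher. Of all measured genes, 54.3% were higher and 25.1% at least 1.1-fold higher, the background for this and the following group counts. The groups are small, so their counts are coarse. KIF18A, a plus-end motor that damps the swings of chromosomes at the metaphase plate, had an intensity of 398 at 6 h and 308 at 0 h, a log2 difference of 0.37 and the largest of the 48 genes. It rests on 1 probe set. KIF14, which works with citron kinase in cytokinesis, had 1643 at 6 h and 1306 at 0 h (0.33), and its other probe set had 1020 at 6 h and 858 at 0 h (0.25), so both sets were higher by a similar amount. KIF23, the motor of the centralspindlin complex at the spindle midzone, had 1277 at 6 h and 1077 at 0 h (0.25). Its dim other set differed by 0.11. KIF20B, a motor needed for the last steps of cytokinesis, had 757 at 6 h and 647 at 0 h (0.23), with its other 2 sets below the floor.

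The other 6 kinesins had log2 differences between -0.02 and 0.14. KIF11, the motor that slides antiparallel microtubules to make the spindle bipolar, had 2053 at 6 h and 1862 at 0 h (0.14). KIF20A, which brings the chromosomal passenger complex to the midzone, had 3315 at 6 h and 3027 at 0 h (0.13). KIF2C, a depolymerase that corrects faulty attachments at centromeres, had 4007 at 6 h and 3798 at 0 h (0.08), and its other set differed by 0.09. These 3 lay within the probe set scatter. The chromosome arm motor KIF22 (941 at 6 h, 913 at 0 h) and KIF15, which backs up KIF11 (807 at 6 h, 788 at 0 h), were close to no difference at 0.04 and 0.03. KIF22 had a dimmer second set that was lower, with 267 at 6 h and 271 at 0 h (-0.02). On their brightest sets both genes were lower under quantile normalization, with log2 differences of -0.005 for KIF22 and -0.01 for KIF15. Relative to the median of its gene span class KIF15 was at -0.04. KIF4A, a chromosome and midzone motor, was the 1 kinesin that was lower, with 2112 at 6 h and 2143 at 0 h (-0.02). KIF4A has a near-identical retrocopy, KIF4B, which its probe set cannot be assumed to tell apart.

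Each of the 8 kinetochore and checkpoint genes was higher (median log2 difference 0.15), and 5 were at least 1.1-fold higher. NDC80 and NUF2 form the rod with which the kinetochore grips microtubules. NDC80 had an intensity of 1574 at 6 h and 1329 at 0 h (0.24), and its partner NUF2 had 1367 at 6 h and 1222 at 0 h (0.16). CENPF, a large kinetochore protein of the late cell cycle, had 1963 at 6 h and 1735 at 0 h (0.18), with a second measured set at 0.21. CENPE, a kinesin that carries chromosomes to the metaphase plate, had 1038 at 6 h and 935 at 0 h (0.15). Counted with the kinesins it would make 10 of 11 higher, with a median of 0.14.

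Among the checkpoint kinases, TTK, which starts the spindle assembly signal, had 1411 at 6 h and 1265 at 0 h (0.16). BUB1, which marks the inner centromere, had 2666 at 6 h and 2527 at 0 h (0.08), with 2 further measured sets at 0.01 and 0.15, the last a bound because that set lay below the floor at 0 h. CENPA, the histone H3 variant that defines the centromere, had 1196 at 6 h and 1134 at 0 h (0.08). BUB1B, which encodes the checkpoint inhibitor BUBR1, differed least, with 3716 at 6 h and 3683 at 0 h (0.01). Its sign was not kept over the alternatives tried, with -0.004 after centring and -0.02 relative to the median of its gene span class. The count of 8 of 8 therefore rests on BUB1B as given, and 7 of 8 hold without it.

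The cyclin B and CDK1 genes, with the ubiquitin ligase parts that end mitosis, were the most mixed of the larger groups: 7 of 10 were higher and 3 lower, with a median log2 difference of 0.07. CDK1, the kinase itself, had an intensity of 3858 at 6 h and 3961 at 0 h (-0.04). All 4 of its probe sets were lower, the others with 2706 at 6 h and 2972 at 0 h, 2264 at 6 h and 2502 at 0 h, and a dim one below the floor at 6 h. The log2 differences of these other sets were -0.14 for both bright ones and -0.20 for the dim one, which is a bound set by the floor. On the brightest sets CDK1 was thus lower and its cyclins higher. The differences of CDK1, CCNB1 and CCNB2 on these sets were smaller than the probe set scatter of 0.16.

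CCNA2, cyclin A2, which pairs with CDK2 and CDK1, had 3312 at 6 h and 2942 at 0 h (0.17), but its second set had 2324 at 6 h and 2414 at 0 h (-0.05), so that its direction depends on the set. CCNB1, cyclin B1, had 5989.5 at 6 h and 5714 at 0 h (0.07) and a second set at 0.17, both higher. CCNB2, cyclin B2, whose promoter is shown above, had 2032 at 6 h and 1915 at 0 h (0.09), with a dim second set close to the floor at -0.08. Of the phosphatases that activate CDK1, CDC25C and CDC25B were higher, and CDC25A, described with the other regulators of CDK1, was lower. CDC25C had 1182 at 6 h and 1069 at 0 h (0.14) with a second measured set at 0.18, and CDC25B had 1101 at 6 h and 1013 at 0 h (0.12). On their brightest sets both lay within the probe set scatter of 0.16.

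The small CDK-binding subunits differed little. CKS1B had 6250.1 at 6 h and 6421 at 0 h (-0.04), and CKS2 had 7240.2 at 6 h and 7227 at 0 h (0.003), which turned to -0.01 under other scalings. CDC20, the activator of the anaphase-promoting complex, had 5281 at 6 h and 5505 at 0 h (-0.06). UBE2C, the conjugating enzyme of that complex, had 3379 at 6 h and 3208 at 0 h (0.07).

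Mitotic kinases and spindle factors had a median log2 difference of 0.11, with 10 of 11 higher and 1 lower. NUSAP1, which bundles microtubules near chromosomes, had the largest difference, with 5649.9 at 6 h and 4915 at 0 h (0.20), and its second set had 1299.6 at 6 h and 1028 at 0 h (0.34). PLK1, a kinase of mitotic entry and spindle poles, had 204 at 6 h and 183 at 0 h (0.15). AURKA, the spindle pole kinase, had 3998 at 6 h and 3694 at 0 h (0.11), with a second measured set at -0.02. Its activator TPX2 had 2325 at 6 h and 2152 at 0 h (0.11).

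The chromosomal passenger complex corrects attachments and later steers cytokinesis. Its kinase AURKB had 2137 at 6 h and 1994 at 0 h (0.10), with a dim second set at -0.16, and the median of these sets was -0.03. Its subunit survivin, encoded by BIRC5, had 5422 at 6 h and 5016 at 0 h (0.11). The other 3 sets of BIRC5 ran between -0.005 and 0.07, and -0.005 was its value when sets named _x_at or _s_at, which can bind related transcripts, were left out.

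Of the spindle-associated factors, HMMR, a hyaluronan receptor that also sits at spindle poles, had 4879 at 6 h and 4529 at 0 h (0.11). DLGAP5, which stabilises spindle microtubules, had 2531 at 6 h and 2372 at 0 h (0.09). GTSE1, a microtubule and p53 regulator, had 2669 at 6 h and 2502 at 0 h (0.09), and its 5 measured sets lay between 0.004 and 0.16. CKAP2 had 1256 at 6 h and 1195 at 0 h (0.07). TACC3, which with clathrin crosslinks the fibres that pull chromosomes, was the 1 lower member, with 864 at 6 h and 917 at 0 h (-0.09). It rests on 1 probe set. Its value was the most negative of the 48 genes on their brightest sets, while the other sets of CDK1 and the dim second set of AURKB were lower still.

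Cytokinesis genes had a median log2 difference of 0.06, with 3 of 4 higher and 1 lower. ECT2, the exchange factor that switches on RhoA at the cell equator, had 3206 at 6 h and 2666 at 0 h (0.27), and its dim second measured set had 238 at 6 h and 229 at 0 h (0.06). The remaining members were close to no difference. PRC1, which crosslinks midzone microtubules, had 5077 at 6 h and 4834 at 0 h (0.07), and RACGAP1, the partner of KIF23 in centralspindlin, had 3277 at 6 h and 3183 at 0 h (0.04). ANLN, the scaffold of the contractile ring, had 2060.4 at 6 h and 2109 at 0 h (-0.03), with its second set at -0.01. Within centralspindlin and its partner ECT2 the values therefore ran from 0.04 for RACGAP1 to 0.25 for KIF23 and 0.27 for ECT2. Counted with the 5 kinesins that act in cytokinesis (KIF4A, KIF14, KIF20A, KIF20B and KIF23), 7 of 9 were higher, with a median of 0.13.

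The 5 chromosome and proliferation genes had log2 differences above 0 (median 0.09). MKI67, which encodes the proliferation marker Ki-67, had 827 at 6 h and 725 at 0 h (0.19), and its 4 sets lay between 0.11 and 0.26. TOP2A, the topoisomerase that untangles chromosomes, had 4907 at 6 h and 4524 at 0 h (0.12), and a second set with 4461 at 6 h and 3529 at 0 h (0.34). SMC4, a condensin subunit, had 4481 at 6 h and 4214 at 0 h (0.09). Its sets disagreed in size, with 0.03 for one and 0.55 for another (288 at 6 h, 196.5 at 0 h). HMGB2 had 10415 at 6 h and 10280.4 at 0 h (0.02), and FOXM1, the transcription factor of G2/M genes, had 1490 at 6 h and 1487 at 0 h (0.002), which turned to -0.04 under other scalings.

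Other genes of mitosis, and the other kinesins, were looked at by list. Of 157 genes in 7 lists of mitosis genes, 150 were measured. Their median log2 difference was 0.03, with 83 higher (55.3%) and 67 lower (44.7%). Cytokinesis and condensin or cohesin genes ran above the background of 54.3%, as did the other kinesins, which are not among the 157. Other spindle and centrosome genes lay slightly above it (57.6%). Of 15 other cytokinesis genes 13 were higher, with a median of 0.12. They were led by ROCK1, a kinase downstream of RhoA, with 2293 at 6 h and 1843 at 0 h (0.32), ROCK2 (0.25, with another set at -0.18) and the formin DIAPH3 (0.19, both sets higher). Condensin and cohesin genes had the same median of 0.12, with 17 of 22 higher. The cohesin loader NIPBL had 1740.3 at 6 h and 1217 at 0 h (0.52), with 5 sets between 0.21 and 0.59. The cohesin release factor WAPL differed by 0.33, with its sets between -0.02 and 0.33. The acetyltransferase ESCO2 differed by -0.49 (74.0 at 6 h, 103.6 at 0 h, both dim), with another set at -0.05.

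Of 28 other kinesins, most of them motors of transport, 20 were higher, with a median of 0.11. The largest differences among them were those of KIF13B (0.35), KIF3A (0.34, with another set at 0.002) and KIF19 (-0.29, close to the floor). By contrast, the 38 other kinetochore and checkpoint genes had a median of -0.02 (15 higher, 23 lower), although the 8 listed above were all higher. SKA2, of the complex that couples kinetochores to microtubule ends, had 4844 at 6 h and 3648 at 0 h (0.41, both sets higher). SKA3 of the same complex had 463 at 6 h and 546 at 0 h (-0.24), and the cohesin protector SGO1 differed by 0.23, with another set at -0.08. The kinetochore as a whole thus did not move one way.

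Subunits of the anaphase-promoting complex were higher in 5 of 14 cases, with a median of -0.01, and ANAPC2 (-0.28), CDC26 (-0.21) and CDC27 (0.20, with another set at -0.05) differed most. Regulators of CDK1 were higher in 7 of 14, with a median of 0.03. Among them CDC25A, the phosphatase that also acts at G1/S, had 1032 at 6 h and 1219.8 at 0 h (-0.24), with 3 sets between -0.24 and -0.08. Its sign was opposite to that of CDC25B and CDC25C, whose brightest sets lay within the probe set scatter. FZR1, the other activator of the complex, differed by 0.24 with sets in both directions, and CDK7, the kinase that activates CDKs, by 0.18. Other spindle and centrosome genes were higher in 19 of 33, with a median of 0.04, led by HAUS2 (0.28, 4 sets between 0.04 and 0.36), CLASP1 (0.24) and NUMA1 (0.24). Of the 14 G2/M transcription factors 7 were higher, with a median of 0.01. The MuvB subunits LIN9 (508 at 6 h, 386 at 0 h) and LIN54 (111 at 6 h, 92.0 at 0 h) differed by 0.39 and 0.26, and NFYA, a subunit of the CCAAT factor, was lower on all 5 sets (532 at 6 h, 729.8 at 0 h, -0.46).

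**Figure D3:**
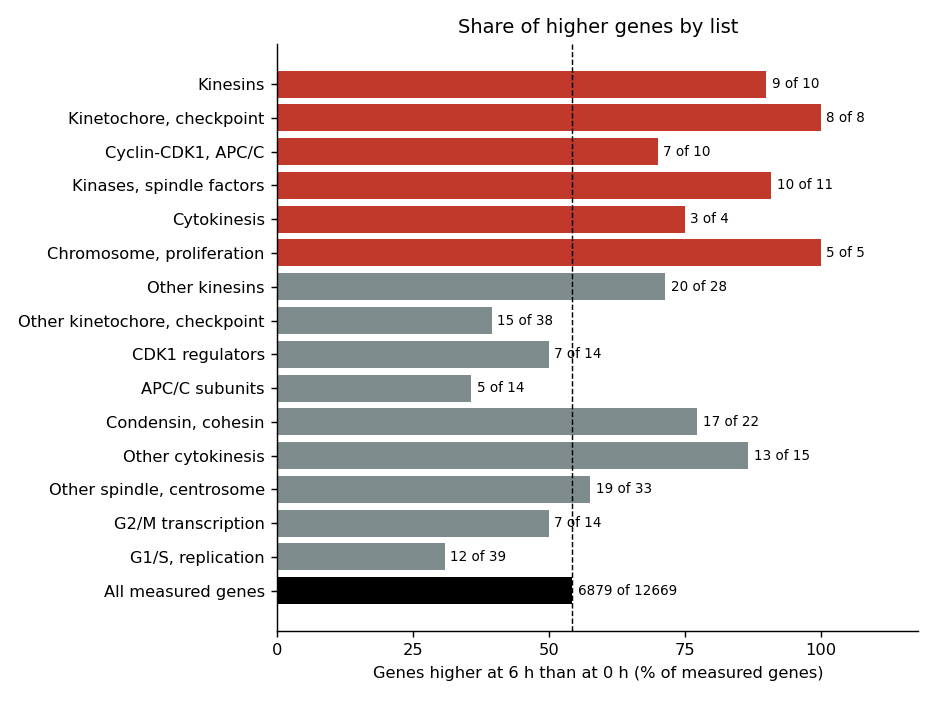
Share of measured genes that were higher at 6 h than at 0 h, as bars from 0, with counts beside them. Red bars are the 6 role groups of the 48 mitosis genes, grey bars other gene lists, and the black bar and dashed line all measured genes (54.3%). The red bars run from 70% to 100% and lie above the line, while other kinetochore genes (39.5%), subunits of the anaphase-promoting complex (35.7%) and G1/S genes (30.8%) lie below it.

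G1/S and replication genes, which are transcribed earlier in the cycle, were more often lower than higher, mostly by small amounts. The mitosis genes had 42 of 48 higher and 6 lower, against 12 higher and 27 lower of the 39 measured G1/S genes (median log2 difference -0.05). Of all measured genes 54.3% were higher and 45.7% lower. At least 1.1-fold lower were 4 G1/S genes (16.7% of all genes), and at least 1.2-fold lower were 2 (5.29% of all genes). Decreases of that size were thus no more common than over all genes. The extremes were CCNE1, cyclin E1, with 697 at 6 h and 905 at 0 h (-0.38), CDC6, which loads the replicative helicase, with 1425 at 6 h and 1811 at 0 h (-0.35, both sets lower), and the licensing factor CDT1 (0.26, with another set at 0.0005). Over the scalings, floors and probe set rules tried, the median was between 0.08 and 0.10 for the mitosis genes and between -0.06 and -0.03 for the G1/S genes. With 1 array per time the gap between the lists has no test.

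**Figure D4:**
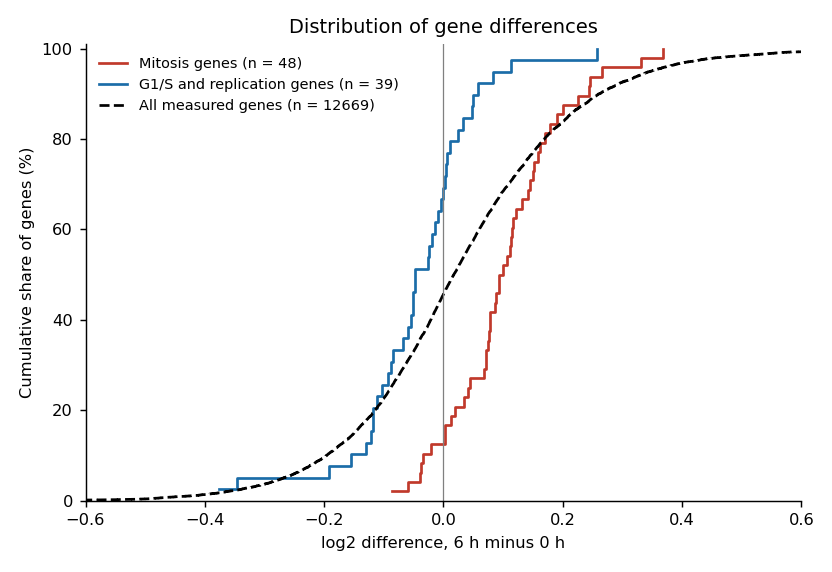
Cumulative share of genes (%) against the log2 difference, 6 h minus 0 h, for the 48 mitosis genes, 39 G1/S and replication genes and 12669 measured genes. The curve of the mitosis genes lies to the right of 0 for all but 6 genes and climbs steeply around its median of 0.10, that of the G1/S genes is to the left with a median of -0.05, and the curve of all genes spreads wider around 0.02.

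Over the whole array the differences varied with intensity and with gene size. In 4 equal classes of mean intensity, from dim to bright, the median log2 difference of all genes was -0.02, 0.04, 0.04 and 0.01, with no steady trend. Of the 48 genes, 40 lay in the brightest class, where their median was 0.09 with 35 of 40 higher, and where 54.4% of all genes were higher. By span, the distance from start to end of a gene in RefSeq, longer genes were higher on the whole array: the median log2 difference was -0.02 in the shortest of 4 classes (45.4% higher) and 0.07 in the longest (66.3% higher). Across 12658 genes the Spearman correlation of difference and span was 0.19, and across the 48 mitosis genes it was 0.39. Without the longest class it was 0.36 across 41 mitosis genes and 0.11 across 9493 of all genes. Genes are not independent replicates, and all points share the same pair of arrays.

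Within every class of span the mitosis genes had a higher median than all genes of that class. It was 0.07 against -0.02 in the shortest class (9 mitosis genes), 0.07 against -0.006 in the next (11), 0.11 against 0.03 in the third (21), and 0.23 against 0.07 in the longest (7). The 7 were KIF18A (0.37), KIF14 (0.33), ECT2 (0.27), KIF20B (0.23), CENPE (0.15), KIF15 (0.03) and KIF4A (-0.02), so that they ranged widely. Taken relative to the median of its span class, the median of the 48 genes was 0.09, with 40 higher and 8 lower. The part of span in the differences of single genes was not tested.

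**Figure D5:**
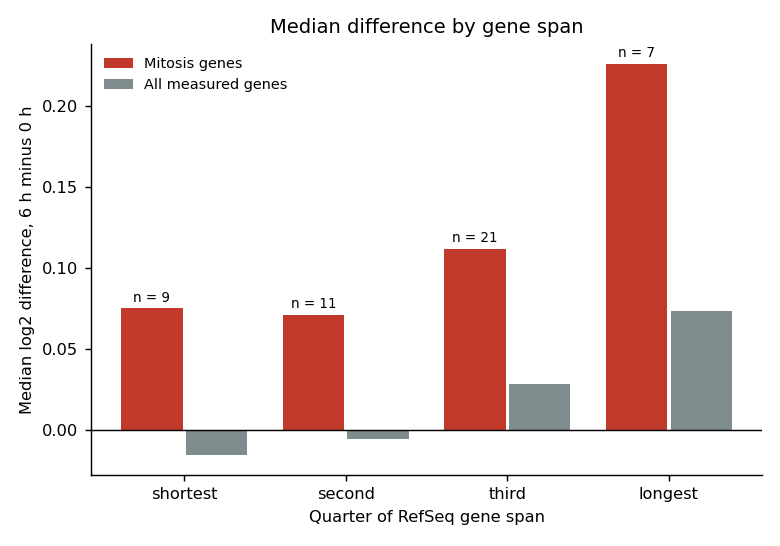
Median log2 difference, 6 h minus 0 h, in 4 classes of RefSeq gene span from shortest to longest, for the mitosis genes (red, with their number) and all measured genes (grey), as bars from 0. The red bar is above the grey one in each class, and both are highest in the longest class (0.23 and 0.07).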

How the data were processed

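RNA of CL1-0 cells was profiled on 2 Affymetrix arrays, 1 at 6 h and 1 at 0 h. The authors deposited a linear intensity for every probe set. Per the submitters' processing notes MAS5 was used, its parameters and any scaling between arrays being not given in the sources used here. Dim MAS5 values are noisy, and unequal scaling would move all genes together. Probe sets were named through the platform annotation, with symbols updated by Entrez identifier (41037 of 41091 probe sets with 1 gene matched RefSeq). A further 1801 probe sets named several genes and 11721 none.

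Values below the 50th percentile of all values were set to it, and a gene counted as measured when above it on at least 1 array. Work was done in Python 3.11.15 with pandas 2.3.3. With 1 array per time no test was run. Counts used 1.1-fold, 1.2-fold and 1.5-fold. The 48 genes are all named. Of every other list the 3 genes with the largest absolute difference among those above the floor on both arrays were named. Members and lists were chosen with earlier results of these data known. Alternatives were other floors (40th and 60th percentile), none with log2(value + 16), centring, quantile normalization, loess (span 0.3), the median probe set, no _x_at or _s_at sets and, added after seeing the data, centring by gene span. The steps were tested on simulated data. The number of arrays limits the precision.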

Additional observations from a re-analysis of the deposited data

How the results depend on the processing

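Over 9 alternatives the median log2 difference of the mitosis genes was between 0.08 and 0.10. Of the 48 genes, between 38 and 42 were higher in the 8 alternatives that kept all 48. Without _x_at and _s_at probe sets 30 genes were left, of which 25 were higher and 1 passed 1.2-fold. Relative to the median of the gene span class 1 gene passed 1.2-fold, and 2 did after centring, quantile normalization or loess, where the main count was 3. Of 42 higher genes 35 were higher in every alternative that measured them, and all 6 lower genes were lower. AURKB, BIRC5, BUB1B, CKS2, FOXM1, KIF15 and KIF22 changed sign in at least 1. Without _x_at and _s_at sets the cytokinesis group was left with 1 gene, ANLN, at -0.01, so this setting gives no median for that group. The share of all genes higher ran from 46.5% to 56.3%. Signal over background did not limit the 48 genes, all above the floor on both arrays. No paired analysis was possible because each time has 1 array.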
